A study of Mus musculus with 4 samples.

Results

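Chemokines and their receptors were followed in muscle stem cells, also called satellite cells, as a set of 63 members among the 55487 gene identifiers of the deposited tables. Members were chosen by symbol alone: the CC, CXC, CX3C and XC ligands (Ccl, Cxcl, Cx3cl1, Xcl1), their receptors (Ccr, Cxcr, Cx3cr1, Xcr1) and the atypical receptors (Ackr). They are 38 ligand genes, 23 receptor genes and 2 pseudogene models of Ccl19 (Ccl19-ps1 and Ccl19-ps3), whose symbols the rule's exclusion of endings in -ps does not reach. Minced skeletal muscle of 2 Tg:Pax7-nGFP mice, which carry a nuclear green fluorescent reporter driven by the satellite cell gene Pax7, was treated with a vivo-morpholino during the initial digestion. A vivo-morpholino is an antisense oligomer that enters cells without transfection. The Numb exon 6 morpholino keeps exon 6 out of the Numb transcript, which encodes an endocytic adaptor known to restrain Notch, and the other libraries had a control morpholino. Satellite cells were then isolated, and each mouse gave 1 library per morpholino, so that 2 Numb exon 6 libraries stood against 2 control libraries. All 4 libraries share the reporter genotype, the muscle digestion and an input of 5 ng RNA, and no undigested muscle was analysed here. The labels give no age or sex of the mice.

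Chemokines are small secreted proteins, and a few membrane-anchored ones, that steer migrating cells along concentration gradients. Their receptors couple to inhibitory G proteins, whereas the atypical receptors take up chemokines without that signal and so shape the gradients. In injured muscle, ligands such as Cxcl1 and Ccl2 are known to draw in neutrophils and monocytes, and many inflammatory ligand genes are known targets of the transcription factor NF-kB. The Cxcl12, Cxcr4 and Ackr3 axis is known for guiding muscle progenitors.

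The estimated counts summed to between 230431665 and 355411827 per library, but they were derived from coverage and cannot be read as sequenced fragments. Transcripts of Numb stood at 40.2 TPM (a level scaled to transcript length and library) in the Numb exon 6 sample of mouse 2 and 39.7 TPM in that of mouse 1, against 37.0 and 27.2 TPM in the control libraries of mouse 2 and mouse 1. The difference of 0.27 ± 0.14 on the log2 scale (SE, n = 2 each) did not pass the test (edgeR adjusted p = 0.999), and values per gene do not show whether exon 6 was skipped. All 8 satellite cell markers were detected in every library, with summed TPM between 9880 and 11810. Of these, Sdc4 alone stood at 6499 to 7673 TPM and Pax7 at 37.0 to 59.7 TPM. Such sums do not measure purity. Markers of fibro-adipogenic progenitors summed to 762 to 956 TPM, endothelial markers to 84.7 to 125 TPM and macrophage or monocyte markers to 37.8 to 61.5 TPM. Neutrophil markers summed to 117 TPM in the Numb exon 6 library of mouse 2, apart from 4.93 to 11.0 TPM in the other 3 libraries, so that library stood apart in them.

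The chemokine transcripts of these libraries were dominated by ligands of Cxcr2, the receptor through which neutrophils are drawn. Each library was made from many cells together, so which cells gave these transcripts is not known. Promoters are shown for Cxcl1, Cxcl2 and Cxcl3, the ligands of Cxcr2 that lay higher in both libraries of mouse 2, and for Cxcl10, which did so from another cluster of the same chromosome. No window was used for Cxcl5, Ccl2, Ccl7, Cxcl16 and Ccl5. Each run holds the 250 bases before the RefSeq start (GRCm38.p6), on the gene's strand, with matches of either strand to GGGNNNTTCC, an NF-kB type motif, in capitals. The motif was chosen with earlier results of these data known. The windows are chr5:90890995-90891244 (+ strand) for Cxcl1, chr5:90903649-90903898 (+ strand) for Cxcl2, chr5:90785851-90786100 (+ strand) for Cxcl3 and chr5:92348890-92349139 (- strand) for Cxcl10.
Cxcl1: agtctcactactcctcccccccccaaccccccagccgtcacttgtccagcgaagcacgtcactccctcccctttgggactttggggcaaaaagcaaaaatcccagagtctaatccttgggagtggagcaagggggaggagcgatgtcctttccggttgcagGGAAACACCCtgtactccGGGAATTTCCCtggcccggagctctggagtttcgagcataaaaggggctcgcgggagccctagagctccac
Cxcl2: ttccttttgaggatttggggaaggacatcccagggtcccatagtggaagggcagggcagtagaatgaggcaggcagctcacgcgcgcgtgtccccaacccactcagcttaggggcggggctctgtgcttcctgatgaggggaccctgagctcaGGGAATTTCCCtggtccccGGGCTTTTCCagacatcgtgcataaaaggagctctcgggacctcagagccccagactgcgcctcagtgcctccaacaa
Cxcl3: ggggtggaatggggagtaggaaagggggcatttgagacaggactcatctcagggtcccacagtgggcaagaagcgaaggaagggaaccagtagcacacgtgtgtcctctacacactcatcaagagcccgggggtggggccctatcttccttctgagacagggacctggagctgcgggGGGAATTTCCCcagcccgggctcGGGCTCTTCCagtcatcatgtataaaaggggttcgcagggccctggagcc
Cxcl10: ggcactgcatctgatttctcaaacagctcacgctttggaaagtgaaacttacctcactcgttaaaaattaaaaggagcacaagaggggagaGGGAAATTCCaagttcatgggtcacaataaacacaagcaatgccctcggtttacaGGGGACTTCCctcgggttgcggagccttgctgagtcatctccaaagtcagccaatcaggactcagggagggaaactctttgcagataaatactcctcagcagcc

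The windows of Cxcl1, Cxcl2 and Cxcl3 each hold the stretch GGGAATTTCCC, in which a match on the gene's strand overlaps a match on the other. It begins 71 bases before the start in Cxcl1, 97 in Cxcl2 and 73 in Cxcl3. Each of these windows has 1 more match, 89 bases before the start in Cxcl1, 78 in Cxcl2 and 50 in Cxcl3. Cxcl10 carries 2 separate matches, 159 and 104 bases before its start. Among all 32851 promoter windows of the same length in the RefSeq table, 4.65% held at least 1 match. Windows, 53 in all, were found for 46 members, and 9 of these members held a match: Ccl1, Ccl9, Ccl20, Ccr3, Ccr6, Cxcl1, Cxcl2, Cxcl3 and Cxcl10. A second motif, GAAANNGAAA of interferon response type, was searched on both strands and occurred in 2.98% of all windows and in those of 3 members, Ccl19, Cxcl10 and Cxcl14. In Cxcl10 it lies 213 bases before the start, clear of the NF-kB type matches. These matches describe letters and show no binding.

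Cxcl1 (ENSMUSG00000029380.11; GRCm38 chromosome 5, 90891241 to 90893115), the main neutrophil attractant of the mouse, reached 8555 and 4168 TPM in the Numb exon 6 libraries of mouse 2 and mouse 1, against 8303 and 4047 TPM in the control libraries of mouse 2 and mouse 1. It ranked 9th and 26th of all genes by TPM in the Numb exon 6 libraries of mouse 2 and mouse 1, against 11th and 25th in the control libraries of mouse 2 and mouse 1. Mouse 2 was high and mouse 1 low under either morpholino, and the morpholino groups overlapped. Cxcl1 alone made up 78.7% and 73.2% of the summed TPM of all members in the Numb exon 6 libraries of mouse 2 and mouse 1, against 80.5% and 76.0% in the control libraries. All members together took 1.09% and 0.570% of all TPM in the Numb exon 6 libraries of mouse 2 and mouse 1, against 1.03% and 0.532% in the control libraries.

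The next ligands were an order of magnitude lower. Cxcl2, a close relative of Cxcl1 on the same receptor, stood at 609 and 247 TPM in the Numb exon 6 libraries of mouse 2 and mouse 1, against 583 and 271 TPM in the control libraries of mouse 2 and mouse 1. Ccl2, the main attractant of monocytes through Ccr2, stood at 384 and 154 TPM in the Numb exon 6 libraries of mouse 2 and mouse 1, against 326 and 140 TPM in the control libraries. Ccl7, which shares Ccr2 with Ccl2, stood at 213 and 107 TPM in the Numb exon 6 libraries, against 184 and 91.1 TPM in the control libraries, in the same order of mice. In each of these genes both libraries of mouse 2 lay above both of mouse 1, while the morpholino groups overlapped. Cxcl2 exceeded Ccl2, and Ccl2 exceeded Ccl7, in each of the 4 libraries.

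Cxcl5 and Cxcl3, the other ligands of Cxcr2, followed at a mean of 70.2 and 68.3 TPM. Cxcl5 stood at 76.9 and 73.2 TPM in the Numb exon 6 libraries of mouse 2 and mouse 1, against 61.6 and 69.2 TPM in the control libraries, a narrow range next to that of Cxcl1. Cxcl3 stood at 94.8 and 52.7 TPM in the Numb exon 6 libraries, against 73.7 and 52.1 TPM in the control libraries, in the same order of mice. Their neighbouring levels overlapped, so the order of Cxcl5 and Cxcl3 is not larger than the spread between libraries.

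Of the 38 ligand genes, 20 reached a mean of 1 TPM, and 18 did not. Over all members, 6 had a mean of at least 100 TPM and 18 of at least 10 TPM. Cxcl10, a ligand of Cxcr3 known as an interferon target, stood at 53.3 and 30.1 TPM in the Numb exon 6 libraries of mouse 2 and mouse 1, against 46.9 and 20.8 TPM in the control libraries. Ccl11, known for attracting eosinophils, stood at 23.9 and 33.6 TPM in the Numb exon 6 libraries, against 23.2 and 24.9 TPM in the control libraries. Cxcl16, a membrane-anchored ligand of Cxcr6, stood at 23.2 and 13.3 TPM in the Numb exon 6 libraries, against 29.8 and 11.6 TPM in the control libraries. Thus Cxcl10 and Cxcl16 were higher in mouse 2 and Ccl11 was lower there.

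Below them, 6 further ligands, several of them known from resting lymphoid and barrier tissue, stood between 5.86 and 19.5 TPM in any library. Cxcl14, a homeostatic ligand, kept between 14.7 and 16.5 TPM in the 4 libraries. Cxcl13, which guides B cells through Cxcr5, stood between 12.8 and 19.5 TPM, and Ccl25, the ligand of Ccr9, between 10.5 and 11.9 TPM. Cxcl12, the ligand of Cxcr4 and Ackr3, stood at 10.8 and 12.6 TPM in the Numb exon 6 libraries of mouse 2 and mouse 1, against 11.0 and 9.41 TPM in the control libraries. Ccl5, an attractant of T cells and monocytes, stood at 11.5 and 7.79 TPM in the Numb exon 6 libraries, against 14.3 and 8.53 TPM in the control libraries. Ccl27a, a ligand of Ccr10, stood between 5.86 and 11.3 TPM. Cxcl14 and Cxcl13 lay above Ccl25 in every library, whereas the ranges of Ccl25, Cxcl12, Ccl5 and Ccl27a overlapped, so their order was not resolved.

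The ligands of Ccr7 share near-identical copies, and their reads may have been split between the copies. Ccl19 stood at 42.9 and 34.0 TPM in the Numb exon 6 libraries of mouse 2 and mouse 1, against 42.2 and 60.6 TPM in the control libraries. The pseudogene model Ccl19-ps3 stood at 195 and 166 TPM in the Numb exon 6 libraries, against 160 and 83.6 TPM in the control libraries, above Ccl19 itself in every library. Ccl19-ps1 stood at 16.0 and 11.0 TPM in the Numb exon 6 libraries, against 3.80 and 6.17 TPM in the control libraries. Ccl19 was highest in the control library of mouse 1, where Ccl19-ps3 was lowest, and these 3 values are uncertain singly. Taken as 1 sum, the 3 stood at 254 and 211 TPM in the Numb exon 6 libraries, against 206 and 150 TPM in the control libraries. Ccl21a ranged from 5.04 to 12.1 TPM and its copy Ccl21b from 0.710 to 1.47 TPM.

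**Figure D1:**
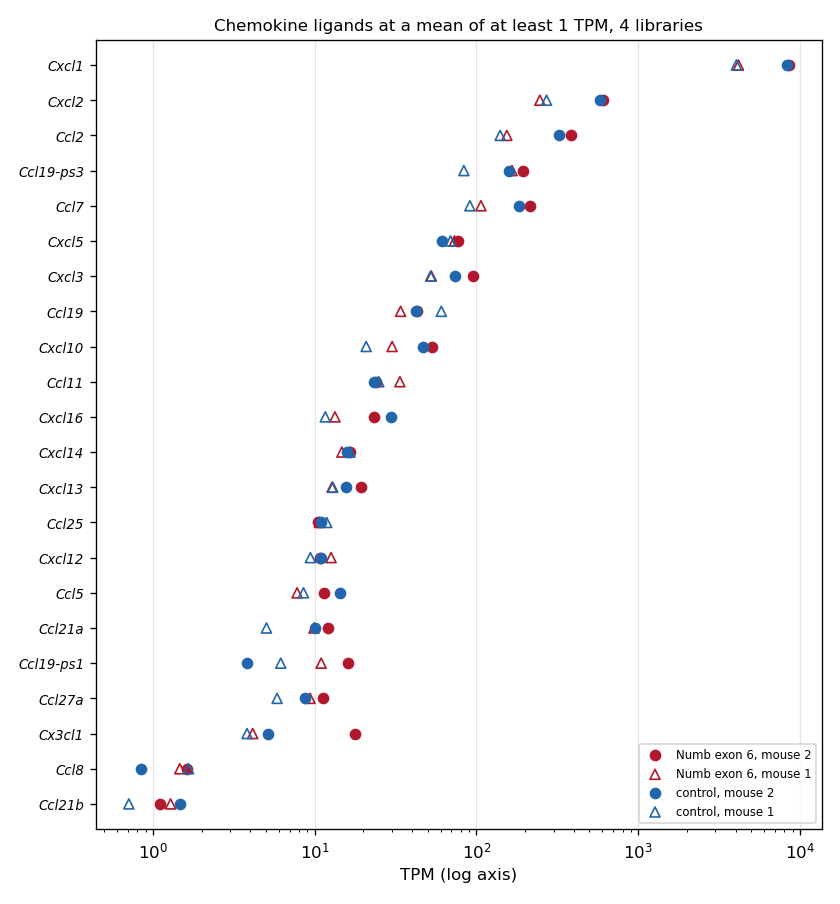
Levels of the ligands with a mean of at least 1 TPM, pseudogene models included, as TPM on a log axis; each point is 1 library, filled circles are mouse 2, open triangles mouse 1, red Numb exon 6 and blue control. Cxcl1 sits between 4047 and 8555 TPM, and its points part by mouse rather than by morpholino.

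Receptors were scarce by comparison. Only Ackr3, Cxcr4, Ackr1 and Ccr7 of the 23 receptors had a mean of at least 1 TPM, and 17 of the 19 typical, signalling receptors stayed below it. The highest value of any of the 19 receptors below that mean was 0.689 TPM in any library. Ackr3 (ENSMUSG00000044337.5; chromosome 1, 90203980 to 90216751), the scavenger of Cxcl12, was the one abundant receptor, with 447 and 487 TPM in the Numb exon 6 libraries of mouse 2 and mouse 1, against 364 and 346 TPM in the control libraries. Cxcr4, the signalling receptor of Cxcl12, stood at 8.52 and 14.0 TPM in the Numb exon 6 libraries, against 7.53 and 10.7 TPM in the control libraries. The lowest Ackr3 value thus lay far above the highest Cxcr4 value, and Cxcr4 was lower in both libraries of mouse 2.

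The signalling receptors of the abundant inflammatory ligands were near the limit of detection. Cxcr2, the receptor of Cxcl1, had 0.126 and 0.0723 TPM in the Numb exon 6 libraries of mouse 2 and mouse 1, against 0.00846 and 0.00694 TPM in the control libraries. Its relative Cxcr1 was listed at 0 in all 4 libraries, as was the ligand Ccl26. Ccr2, the receptor of Ccl2, ranged from 0.0222 to 0.170 TPM. Cxcr6, the receptor of Cxcl16, ranged from 0.338 to 0.676 TPM, and Cx3cr1, the receptor of Cx3cl1, from 0.0157 to 0.0510 TPM. For Cxcl1 and Ccl2 the ligand was therefore plentiful and the signalling receptor named here close to 0. In bulk libraries, fewer cells of a type and less RNA per cell cannot be told apart.

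**Figure D2:**
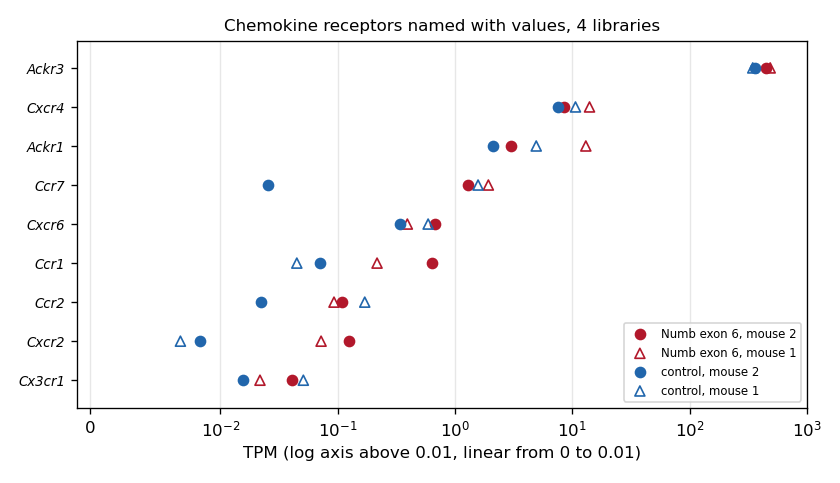
Levels of the 9 receptors named with values, as TPM, on an axis that is logarithmic above 0.01 and linear from 0 to 0.01; each point is 1 library, filled circles are mouse 2, open triangles mouse 1, red Numb exon 6 and blue control. Ackr3, at 346 to 487 TPM, stands alone, and Cxcr6, Ccr1, Ccr2, Cxcr2 and Cx3cr1 lie below 1 TPM in every library.

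The comparison of the mice set 1 animal against 1 other, each with both of its libraries, and cannot show how these genes vary between animals. A difference between the animals cannot be told apart from one between their preparations. Log2 fold changes are given as mouse 2 minus mouse 1, and their SE (n = 2 libraries per mouse) and p measure the spread between libraries of 1 animal each, not between animals. The ligands Cxcl1, Cxcl2, Ccl2, Ccl7, Cxcl10 and Cxcl16 stood about 2-fold higher in mouse 2. No member passed an edgeR adjusted p of 0.05, where 0.0254% of all 27551 genes tested did. At an unadjusted p under 0.05, 12 of the 53 members that passed the filter on low counts stood out, 9 higher and 3 lower in mouse 2, beside 8.31% of all genes. With the morpholino as a term the count was 13, beside 9.42% of all genes. The 10 members that failed the filter were not tested.

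Cxcl1 had a log2 fold change of 1.01 ± 0.08 (SE; edgeR adjusted p = 0.0752), a fold of 2.01. Its log2 difference was 1.03 between the Numb exon 6 libraries and 0.99 between the control libraries, both close to the overall value. Cxcl2 had a log2 fold change of 1.18 ± 0.11 (edgeR adjusted p = 0.127), Ccl2 of 1.24 ± 0.12 (adjusted p = 0.128) and Ccl7 of 0.98 ± 0.12 (adjusted p = 0.260). These 4 genes had the smallest p of all members. Cxcl16 followed with 1.05 ± 0.17 (edgeR adjusted p = 0.431) and Cxcl10 with 0.96 ± 0.19 (adjusted p = 0.506). Whether these ligands pass the threshold depended on the test. DESeq2 called 8 members, Cxcl1, Cxcl2, Cxcl3, Cxcl10, Cxcl16, Ccl2 and Ccl7 higher and Ackr1 lower in mouse 2, where it called 1.78% of all genes. When low counts were not filtered, edgeR called 7 members, the same as DESeq2 but for Cxcl3, where it called 0.263% of genes.

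Neutrophil markers also stood higher in mouse 2. They summed to 117 and 11.0 TPM in the Numb exon 6 and control libraries of mouse 2, against 5.72 and 4.93 TPM in those of mouse 1, and 6 of the 7 lay higher in both libraries of mouse 2. The macrophage or monocyte markers summed to 61.5 and 44.6 TPM in mouse 2, against 44.8 and 37.8 TPM in mouse 1, with 2 of 10 higher and 2 lower without overlap. Their part in the higher Cxcl1, Cxcl2, Ccl2 and Ccl7 values of mouse 2 was not tested.

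Cxcl3 had a log2 fold change of 0.65 ± 0.15 and Ccl5 of 0.67 ± 0.26, and both libraries of mouse 2 lay above both of mouse 1 in each. Cx3cl1, the membrane-anchored ligand fractalkine, had 17.7 and 5.16 TPM in the Numb exon 6 and control libraries of mouse 2, against 4.14 and 3.82 TPM in the Numb exon 6 and control libraries of mouse 1. The log2 fold change of 2.04 ± 0.64 rested on 1 library. It was 0.68 when the Numb exon 6 library of mouse 2, the one with high neutrophil markers, was left out, and the part of those markers was not tested. With the control library of mouse 2 left out it was 2.72, with an edgeR adjusted p of 0.0242.

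The 3 members lower in mouse 2 at that p were Ackr1, Cxcr4 and Ccl28. Ackr1, an atypical receptor known from venular endothelium and red cells, had 3.002 and 2.12 TPM in the Numb exon 6 and control libraries of mouse 2, against 13.1 and 4.93 TPM in those of mouse 1. Its log2 fold change on the estimated counts was -3.34 ± 0.55 (SE; edgeR adjusted p = 0.431). Its size depended on the scale: limma on log2(TPM + 1) gave -1.37 ± 0.41, and the estimated counts were 155 and 123 in the Numb exon 6 and control libraries of mouse 2, against 2456 and 1070 in those of mouse 1. The 7 endothelial markers summed to 89.0 and 84.7 TPM in the Numb exon 6 and control libraries of mouse 2, against 125 and 87.8 TPM in those of mouse 1. None of them was at 0, 3 lay lower in both libraries of mouse 2, and their part in the Ackr1 result was not tested. Cxcr4 had a log2 fold change of -0.60 ± 0.20. Ccl28, a mucosal ligand of Ccr10, had one of -2.42 ± 0.88 at no more than 0.241 TPM.

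**Figure D3:**
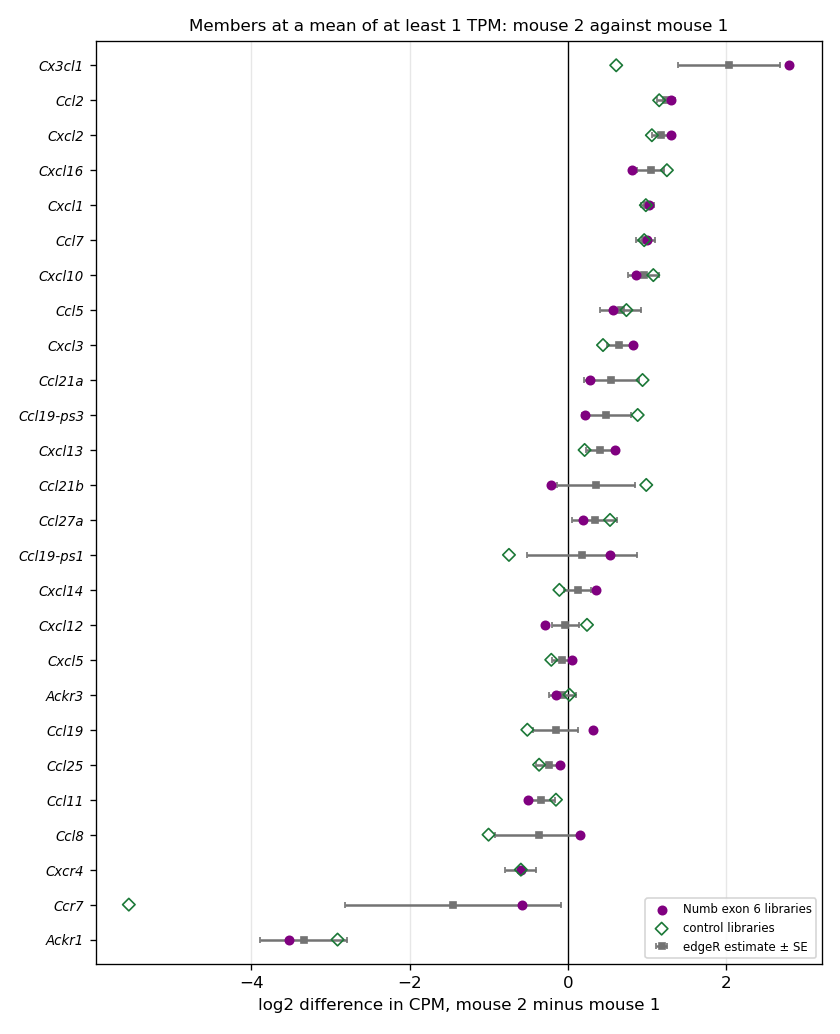
Log2 difference in CPM (counts scaled to library size) of mouse 2 minus mouse 1 for members at a mean of at least 1 TPM; grey squares with bars are the edgeR estimate ± SE, filled circles the difference between the Numb exon 6 libraries and open diamonds that between the control libraries. For Cxcl1 both points lie near the estimate of 1.01, whereas those of Cx3cl1 and Ccr7 lie far apart.

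Chemokine genes lie in clusters, and 41 of the 61 members with coordinates had another member within 500 kb. Members of 1 cluster did not all differ between the mice alike. In the Cxcl5 to Cxcl2 cluster of chromosome 5, which spans 147 kb, Cxcl5 opens the row with a log2 fold change of -0.07 ± 0.13. Cxcl3 starts 26.7 kb further on with 0.65 ± 0.15, Cxcl1 at 132 kb with 1.01 ± 0.08 and Cxcl2 at 145 kb with 1.18 ± 0.11. Cxcl15, between Cxcl3 and Cxcl1, was nearly silent at a mean of 0.0381 TPM.

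On chromosome 11, Ccl2 and Ccl7 start 10.1 kb apart and stood at 1.24 and 0.98. Ccl11, 22.3 kb from the start of Ccl2, had -0.34 ± 0.17, with both libraries of mouse 2 below both of mouse 1. Ccl8, a further CC ligand at 79.6 kb, had 1.63 and 0.844 TPM in the Numb exon 6 and control libraries of mouse 2, against 1.47 and 1.66 TPM in those of mouse 1, and overlapped between the mice. In the 44.1 kb cluster of Cxcr3 ligands, Cxcl10 (0.96 ± 0.19) lies between Cxcl9, with -0.84 ± 0.38 at a mean of 0.703 TPM, and Cxcl11, with -0.28 ± 0.73 at 0.0848 TPM. Cxcl9, Cxcl11 and Cxcl15 are named for their position, after their values were seen.

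**Figure D4:**
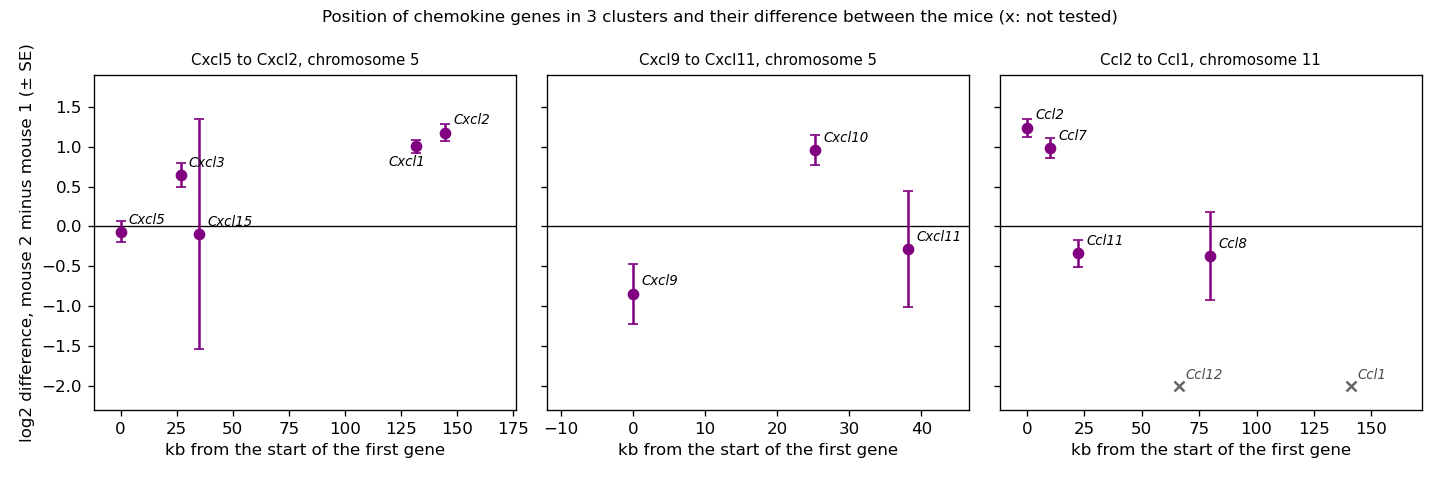
Log2 fold change of mouse 2 minus mouse 1 (± SE) of the members of 3 clusters against the distance of each gene's start from the cluster's first start, in kb; crosses at the bottom mark members that were not tested. Cxcl1 and Cxcl2 lie near 1 at the far end of their cluster, while Cxcl5 lies at -0.07, and Ccl11 lies at -0.34 beside Ccl2 and Ccl7.

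Over all tested members the median log2 fold change of mouse 2 minus mouse 1 was 0.12, against 0.02 over all genes. Both libraries of mouse 2 lay above both of mouse 1 for 13 members (20.9% of all genes) and below for 10 (18.8% of all genes). Cxcr3, among the 10, passed the filter on low counts through the libraries of mouse 1 alone. Among the 18 members at 10 TPM or more, 9 lay above, beside 20.9% of genes at that level, and 3 below, beside 27.9%. Of the 9 members higher in mouse 2 at an unadjusted p under 0.05, 5 had a promoter window (Cxcl1, Cxcl2, Cxcl3, Cxcl10 and Cx3cl1), and 4 of those, all but Cx3cl1, held the NF-kB type match. It was held by 9 of the 46 members with a window and by 4.65% of all windows. The 46 members have 53 windows, so a share of members and a share of windows differ in unit. The 9 members higher in mouse 2 and the motif were both chosen with results known, so the count is a description and no test was made.

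The same contrast in a list of NF-kB factors and targets leaned towards mouse 2. That list was chosen with earlier results of these data known, so its counts are a description. Its part in the chemokine values was not tested. Of its 28 genes, 17 were higher and 0 lower in mouse 2 at an unadjusted p under 0.05 (4.33% and 3.98% of all genes), with a median log2 fold change of 0.63 and 0 genes past the adjusted threshold. Nfkbia, the inhibitor that NF-kB itself induces, had 1464 and 1528 TPM in the Numb exon 6 and control libraries of mouse 2, against 833 and 784 TPM in those of mouse 1. Its log2 fold change was 0.86 ± 0.09 (edgeR adjusted p = 0.132), and those of Nfkbiz, Zc3h12a, Nfkb2 and Nfkb1 were 1.02 ± 0.10, 1.36 ± 0.14, 0.80 ± 0.09 and 0.77 ± 0.12.

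Among 27 inflammatory cytokines and receptors, 3 were higher and 3 lower in mouse 2 at that p (4.33% and 3.98% of all genes), and 0 were called. The cytokines Lif (1.297 ± 0.117) and Csf2 (1.03 ± 0.35) were on the higher side, and Il33 (-0.43 ± 0.13) and the interleukin 1 receptor Il1r1 (-0.40 ± 0.10) on the lower. Tnfrsf1a and Osmr, the most abundant genes of that list, averaged 290 and 201 TPM. Among 29 genes of receptor signalling, 3 were higher and 2 lower, with Jak2 at 0.62 ± 0.12, the G protein subunit Gnai2 at 0.45 ± 0.11 and the regulators Rgs16 and Rgs5 at 0.57 ± 0.13 and -0.57 ± 0.13. Of 18 tested chemokine relatives outside the symbol rule, Bsg, a receptor of cyclophilins, was lower at -0.62 ± 0.09.

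The comparison of the morpholinos asked which members follow the block of Numb exon 6. Neither the abundant ligands nor any other member passed the test. Positive log2 fold changes mean a higher level after the Numb exon 6 morpholino (n = 2 per group). At an edgeR adjusted p of 0.05, 0 of the 53 members tested were called, as were 0% of all 27551 genes, and the smallest adjusted p among the members was 0.999. With the mouse as a block the count was still 0, with a smallest adjusted p of 0.796. At an unadjusted p under 0.05, 4 members stood out, all on the higher side, beside 4.16% of all genes, or 2.5% counting the higher side alone. The block raised the count to 7 members, beside 6.09% of all genes. DESeq2 called 0 members, where it called 0.236% of all genes.

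The dominant ligands differed less between the morpholinos within a mouse than between the mice. For Cxcl1 the log2 difference was 0.01 in mouse 2 and -0.03 in mouse 1. Blocked by mouse, its log2 fold change was -0.01 ± 0.06, whereas the unblocked SE of 0.45 takes in the difference between the mice. Cxcl2 differed by 0.03 in mouse 2 and by -0.21 in mouse 1, with a log2 fold change of -0.05 ± 0.52, or -0.09 ± 0.09 when blocked by mouse. Ccl2 lay higher after the Numb exon 6 morpholino in both mice, by 0.22 in mouse 2 and 0.06 in mouse 1, with 0.17 ± 0.55 unblocked and 0.14 ± 0.09 blocked (edgeR adjusted p = 0.829). Ccl7 did so as well, by 0.18 in mouse 2 and 0.15 in mouse 1, with 0.17 ± 0.44 unblocked and 0.17 ± 0.09 blocked (edgeR adjusted p = 0.808). Neither passed the test, and without the block each of these 4 turned its sign when 1 library was left out.

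Ackr3 was the abundant member with the clearest separation, since both Numb exon 6 libraries (447 and 487 TPM) lay above both control libraries (364 and 346 TPM). Its log2 fold change was 0.34 ± 0.11 (SE; edgeR adjusted p = 0.999), with 0.25 in mouse 2 and 0.42 in mouse 1. It stayed between 0.26 and 0.41 when any 1 library was left out, but groups without overlap keep their sign in such fits. Of all genes at 10 TPM or more, 16% likewise lay higher without overlap. The partners of Ackr3 in the axis overlapped between the groups. Cxcr4 lay higher after the Numb exon 6 morpholino within each mouse, by 0.28 in both, with a log2 fold change of 0.28 ± 0.31, or 0.28 ± 0.16 when blocked by mouse (edgeR adjusted p = 0.808). Cxcl12 went opposite ways, with -0.15 in mouse 2 and 0.38 in mouse 1, and 0.11 ± 0.18 over both. Unblocked, Cxcl12 and Cxcr4 became -0.04 and -0.05 when the Numb exon 6 sample of mouse 1 was left out.

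The other 3 at that p were Ccl19-ps1, Ccr1 and Cxcr2. Ccl19-ps1 had a log2 fold change of 1.37 ± 0.41 (SE; edgeR adjusted p = 0.999), but together with Ccl19 and Ccl19-ps3 the log2 difference was 0.22 in mouse 2 and 0.12 in mouse 1. Ccr1, a leukocyte receptor of inflammatory CC ligands, had 0.642 and 0.217 TPM in the Numb exon 6 libraries of mouse 2 and mouse 1, against 0.0710 and 0.0449 TPM in the control libraries. Its log2 fold change was 2.81 ± 0.75 (SE; edgeR adjusted p = 0.999), and that of Cxcr2, at the values above, was 3.81 ± 1.06 (adjusted p = 0.999). The estimated counts of Cxcr2 were 46 and 36 in the Numb exon 6 libraries, against 3 and 4 in the control libraries. Counts this low, derived from coverage, are uncertain. Cxcr2 also passed the filter on low counts through its Numb exon 6 libraries alone, so its place among the 4 was partly set by the filter.

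Markers of the leukocytes that carry these receptors were read beside them. In sum, neutrophil markers were higher in the control library of mouse 2 than in the Numb exon 6 library of mouse 1. Cxcr2 and the neutrophil marker Csf3r were lower in that control library. The 7 neutrophil markers summed to 117 and 5.72 TPM in the Numb exon 6 libraries of mouse 2 and mouse 1, against 11.0 and 4.93 TPM in the control libraries. Of these markers, 1, Csf3r, lay higher in both Numb exon 6 libraries but did not pass the filter on low counts. It had 0.517 and 0.0156 TPM in the Numb exon 6 libraries of mouse 2 and mouse 1, against 0.00582 and 0.00514 TPM in the control libraries. Another, Mmp8, was at 0 in both libraries of mouse 1. The 10 macrophage or monocyte markers summed to 61.5 and 44.8 TPM in the Numb exon 6 libraries, against 44.6 and 37.8 TPM in the control libraries, with 5 higher and 1 lower without overlap and none at 0. Their part in the Ccr1 and Cxcr2 values was not tested. When the library with the high neutrophil markers was left out, the log2 fold changes were 1.83 for Ccr1 and 3.35 for Cxcr2. Neither gene overlapped between the groups, so leaving out 1 library could not turn these signs, and 1 Numb exon 6 library remained.

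Ccr7, the lymphocyte and dendritic cell receptor of Ccl19 and Ccl21a, had 1.29 and 1.93 TPM in the Numb exon 6 libraries of mouse 2 and mouse 1, against 0.0254 and 1.57 TPM in the control libraries. The control library of mouse 2 stood apart, so that the log2 difference was 5.18 in mouse 2 and 0.21 in mouse 1. The log2 fold change of Ccr7 was 0.93 ± 1.46, or 2.51 ± 1.48 when blocked by mouse (edgeR adjusted p = 0.815). The 4 B cell markers summed to 4.62 and 4.39 TPM in the Numb exon 6 libraries, against 1.79 and 4.37 TPM in the control libraries, none of them at 0. The 6 T or NK cell markers summed to 1.04 and 1.53 TPM in the Numb exon 6 libraries, against 0.375 and 1.05 TPM in the control libraries, with 2 at 0 in the control library of mouse 2 and 1 at 0 in its Numb exon 6 library. All these sums were lowest where Ccr7 was lowest, and their part in the result was not tested. Without the control library of mouse 2 the Ccr7 log2 fold change was -0.05.

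Further members had unlike values in the mice, and the difference between the mice in this contrast was not tested. Cx3cl1 differed by 2.05 in mouse 2 and by -0.14 in mouse 1, with an overall 1.52 ± 0.87, or 0.96 ± 0.56 when blocked by mouse. The unblocked value became -0.48 when the Numb exon 6 sample of mouse 2 was left out. Ccl19 differed by 0.01 in mouse 2 and by -0.83 in mouse 1, with -0.43 ± 0.24 over both. Ackr1 had 0.71 and 1.32 in mouse 2 and mouse 1, and its log2 fold change was 1.27 ± 1.34, or 1.03 ± 0.28 when blocked by mouse. It turned to -1.39 when the Numb exon 6 sample of mouse 1 was left out. None of these passed the adjusted threshold.

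**Figure D5:**
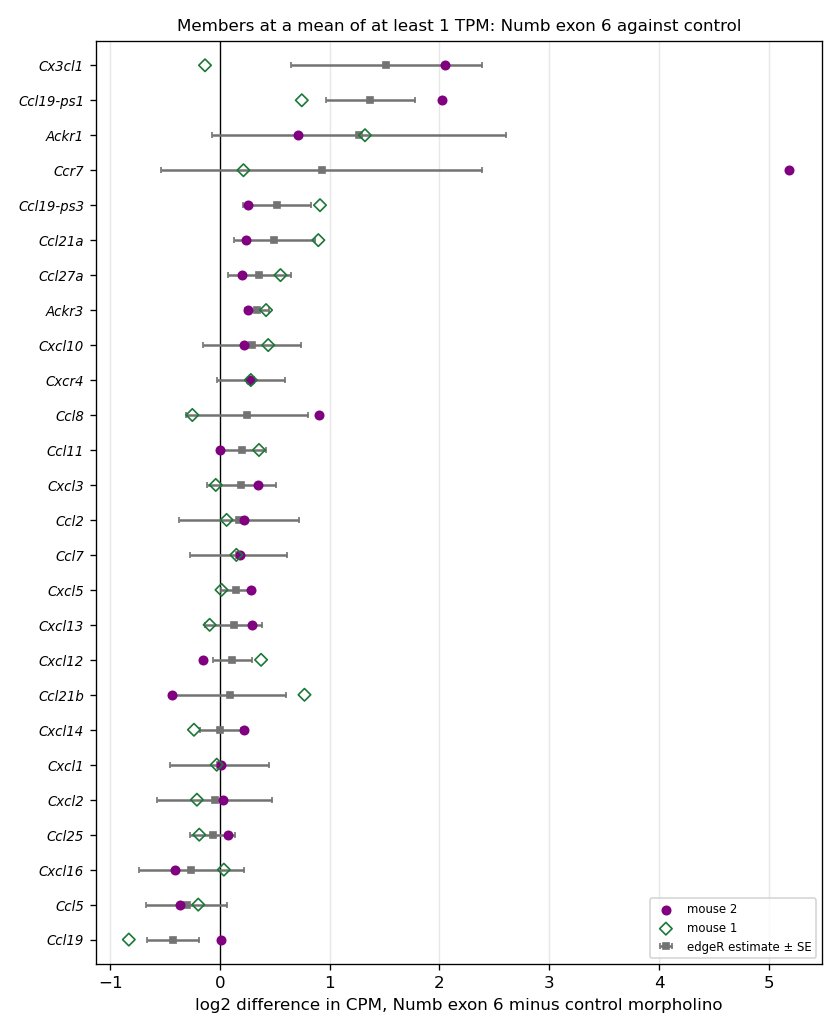
Log2 difference in CPM of Numb exon 6 minus control morpholino for members at a mean of at least 1 TPM; grey squares with bars are the edgeR estimate ± SE, filled circles the difference in mouse 2 and open diamonds that in mouse 1. Both points of Cxcl1 lie at 0, both points of Ackr3 lie above it (0.25 and 0.42), and Cx3cl1 and Ccr7 lie far from 0 in mouse 2 alone.

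Across the 18 members at 10 TPM or more, log2 fold changes ran from -0.43 to 0.52. Within these, 8 were higher in the Numb exon 6 library of both mice, 1 was lower in both and 9 went opposite ways. Groups without overlap numbered 3 on the higher side, Ackr3, Cxcl5 and Ccl19-ps3, beside 16% of genes at that level, and 0 on the lower side, beside 18.2%. Over all 53, 14 lay higher without overlap, beside 17.4% of all genes, and 0 lay lower, beside 17.1%. The median log2 fold change of the 53 was 0.20, against 0.005 over all genes. Some of the 14, such as Cxcr2 and Cxcl15, passed the filter on low counts only through the Numb exon 6 libraries, where they were high. Ccl1, lower without overlap at no more than 0.0118 TPM, failed the filter and was not counted. These counts, and those of low members below, are therefore a description. The 21 tested members outside the rule for naming, Cxcl9, Cxcl11 and Cxcl15 among them, whose TPM never exceeded 1.37, gave 16 higher and 5 lower estimates between -1.51 and 3.65, with a smallest edgeR unadjusted p of 0.0862. In the contrast of the mice they gave 9 higher and 12 lower estimates between -2.05 and 1.303, with a smallest p of 0.0717, that of Cxcl9.

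The related lists also held 0 called genes in this comparison. At an unadjusted p under 0.05, 2.5% of all genes lay higher and 1.66% lower, and the lists held few genes each. Receptor signalling had 2 of 29 higher, Rgs4 (0.52 ± 0.15), an abundant damper of G protein signals at a mean of 165 TPM, and Rgs14 (2.23 ± 0.75) at 0.222 TPM. The NF-kB list had 0 of 28 higher and 1 lower, Tnfaip2 (-1.40 ± 0.30), and Nfkbia stood at -0.06 ± 0.39. The cytokine list had 1 of 27 higher, Il15 (3.40 ± 0.97) at 0.436 TPM. Among the chemokine relatives, Mif, a cytokine that binds Cxcr4, was lower at -0.32 ± 0.12, with 271 and 295 TPM in the Numb exon 6 libraries of mouse 2 and mouse 1, against 330 and 350 TPM in the control libraries.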

How the data were processed

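RNA of satellite cells of 2 mice, 1 library per mouse and morpholino, went through SMART-Seq2 cDNA synthesis, per the labels' protocols. Strand is not kept by it, which leaves genes and their antisense partners unresolved. GRCm38, HISAT2 2.1.0 and StringTie 1.3.6 appear in the submitters' processing notes, whereas no annotation release is given in the sources used here. The authors' deposited estimated counts are whole numbers derived from coverage. Of the counts from 1 to 12, 27.9% to 29.8% stand at 4, 8 or 12, and no expected share was computed. TPM as deposited corrects for transcript length and library size. The share of counts on mitochondrially encoded genes was 3.98% to 4.47%. Coordinates come from GENCODE vM21, which holds 61 of the 63 members, all but Ccl21b and Ccl27b.

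Groups and mice came from the labels. Genes were tested with edgeR 4.0.16 (R 4.3.3) by its robust quasi-likelihood test after TMM scaling and the default filter on low counts, without a block, and p-values were adjusted by Benjamini-Hochberg over 27551 genes at a threshold of 0.05. Log2 differences within a mouse or a morpholino are differences in log2 CPM (prior count 2). Equal mouse numbers mark 1 animal, which pairs the libraries, and values blocked by mouse are named as such. Deviations of same-mouse libraries from the group means correlated across genes at 0.40 (genes averaging 3 or more log2 CPM) and at 0.056 (all tested genes). Libraries of 1 mouse are not separate animals, so their p-values measure spread between libraries. The alternatives were the block, DESeq2 1.42.0 and its size factors, other filters, limma 3.58.1 on log2(TPM + 1) and log2(TPM + 0.1), counts divided by 4, and leaving out each library. The test was tested on simulated data with 200 changed genes.

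The members and lists were chosen with earlier results of these data known. Members with a mean of at least 1 TPM or an unadjusted p under 0.05 in either comparison were named with values, as were 5 ligand and receptor axes (Cxcl12 with Cxcr4 and Ackr3, Ccl2 with Ccr2, Cx3cl1 with Cx3cr1, Cxcl1 with Cxcr2, Cxcl16 with Cxcr6). From each related list, up to 4 genes with the smallest p and the 2 most abundant could be named. Coordinates of promoter windows and their sequences come from RefSeq.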

Additional observations from a re-analysis of the deposited data

How the results depend on the processing

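The absence of called members between the morpholinos held under every alternative named above, and over all genes the count of 0 became 10 without a filter, 1 at a CPM of at least 1 in 2 libraries, 65 with DESeq2, 157 with DESeq2 and the mouse as a block, and 0 to 1 without any 1 library. With the mouse as a replicate block, edgeR called 0 genes and 0 members, so the pairing changed no edgeR call. Between the mice, the 7 genes called became 119 without a filter, 26 at a CPM of at least 1, 490 with DESeq2, 4 on log2(TPM + 1), 1 with the morpholino as a term, 653 with DESeq2 and that term, and 1 to 28 without any 1 library. The 0 members called became 7, 3, 8 and 1 under the leading 4 of these, 2 on log2(TPM + 0.1), 9 with DESeq2 and the morpholino term, and 0 to 1 without any 1 library: Ccr7 without the Numb exon 6 library of mouse 2 (log2 fold change -5.93) and Cx3cl1 without the control library of mouse 2. Of these, Cxcl1, Cxcl2 and Ccl2 were called at a CPM of at least 1, and Cxcl1 alone on log2(TPM + 1). The cause of these shifts was not tested.

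Between the morpholinos, the log2 fold change of Cxcl1 turned to 0.043 on both TPM scales. That of Cxcl14 turned to -0.0068 with the block, -0.0065 without a filter, -0.0023 at a CPM of at least 1, -0.0082 with DESeq2 and the block, -0.049 on log2(TPM + 1) and -0.052 on log2(TPM + 0.1). Between the mice, Ccl19-ps1 turned to -0.099 with the morpholino term, -0.11 with DESeq2 and that term, -0.037 on log2(TPM + 1) and -0.073 on log2(TPM + 0.1). Cxcr6, near 0, turned to -0.010 with the DESeq2 size factors, -0.0085 without a filter, -0.011 with DESeq2, -0.00086 on log2(TPM + 0.1), -0.018 with counts divided by 4, -0.038 with the morpholino term and -0.049 with DESeq2 and that term. The sign of further log2 fold changes depended on the library left out, with these ranges between the morpholinos: Ackr1 -1.39 to 3.37, Ccl11 -0.076 to 0.43, Ccl2 -0.63 to 0.85, Ccl21b -0.33 to 0.67, Ccl25 -0.25 to 0.12, Ccl28 -0.42 to 3.25, Ccl5 -0.63 to 0.11, Ccl7 -0.41 to 0.72, Ccl8 -0.19 to 0.84, Ccr2 -0.75 to 2.06, Ccr7 -0.055 to 5.77, Cx3cl1 -0.48 to 2.32, Cx3cr1 -0.81 to 0.71, Cxcl1 -0.61 to 0.56, Cxcl10 -0.20 to 0.92, Cxcl12 -0.040 to 0.25, Cxcl13 -0.21 to 0.39, Cxcl14 -0.19 to 0.17, Cxcl16 -0.76 to 0.49, Cxcl2 -0.84 to 0.57, Cxcl3 -0.28 to 0.55, Cxcr4 -0.053 to 0.61, Cxcr6 -0.30 to 0.62. Between the mice the ranges were: Ackr3 -0.27 to 0.15, Ccl19 -0.51 to 0.32, Ccl19-ps1 -1.17 to 0.86, Ccl8 -0.90 to 0.014, Ccr1 -0.83 to 2.90, Cx3cr1 -1.08 to 0.056, Cxcl12 -0.21 to 0.17, Cxcl5 -0.22 to 0.059, Cxcr2 -2.61 to 3.11, Cxcr6 -0.55 to 0.40. Leaving out 1 library leaves a group with a single library, assumed to vary like the other group. With 4 libraries of 2 animals, differences within about 1 SE could not be resolved. Larger ones also failed the adjusted threshold, such as that of Ackr3 between the morpholinos (0.34 ± 0.11, edgeR adjusted p = 0.999).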
